A study of Mus musculus with 6 samples.

Results

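The 39 genes described here encode the integrin subunits, the laminin chains and the nidogens, and they were taken from a table of 24341 mouse genes by their symbols, as families chosen with earlier results of these data known. They comprise 26 integrin genes (18 alpha and 8 beta subunits), 11 laminin genes and 2 nidogen genes. RNA-seq had been run on lungs dissected from C57BL/6 embryos at E12.5, as 3 libraries of Shh-Cre;Sin3a flox/flox embryos (mutants) and 3 of Shh-Cre;Sin3a flox/+ embryos (controls). Both groups carried Shh-Cre, a Cre recombinase active in the endodermal epithelium of the early lung, and the controls kept a Sin3a allele without loxP sites. RNA came from the whole lung, so a lower value can mean fewer cells of a type or less RNA per cell, and these cannot be told apart. The labels do not say whether a library is 1 embryo or a pool, and p-values measure the spread between these libraries only.

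Basement membranes are thin sheets of extracellular matrix under epithelia and endothelia and around muscle cells. Laminins, trimers of an alpha, a beta and a gamma chain, form their first network at the cell surface, and nidogens bridge it to collagen IV. Cells hold on to matrix through integrins, pairs of an alpha and a beta subunit that span the membrane, and in the branching lung this contact shapes both the epithelial tubes and the mesenchyme around them.

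FPKM, fragments per kilobase of transcript scaled to the mapped fragments of the library, corrects for transcript length, so levels can be compared between genes. Absolute depth is unknown. Relative depth, read from low values, was 0.80 and 0.53 in control libraries 2 and 3 and 0.50, 1.28 and 1.08 in mutant libraries 1, 2 and 3, with control library 1 as 1. Sin3a measured 18.6 to 19.5 FPKM in the controls and 16.3 to 18.8 FPKM in the mutants (log2 change -0.07, SE 0.09, limma adjusted p = 0.68), and since the floxed exons are not named, a level over the whole gene cannot check the genotypes. Of 14 lung epithelium marker genes, 8 fell and 0 rose, and their summed level was 291 to 378 FPKM in the controls and 106 to 161 FPKM in the mutants. Of 10 mesenchyme markers 3 rose and 1 fell, with sums of 892 to 1105 FPKM against 1333 to 1620 FPKM. None of 7 smooth muscle, 6 neural crest and glia and 4 tested skeletal and heart muscle markers was called by limma (1, 0 and 1 had an unadjusted p under 0.05), while 2 of 10 erythroid markers fell and 1 of 5 tested mesothelium markers rose. Erythroid markers summed to 22994 to 45423 FPKM in the controls and 14622 to 19663 FPKM in the mutants, and 9 of the 10 changes were negative. Of all tested genes, 1.71% rose and 1.63% fell.

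Itgb1 was the most abundant of the 39 genes, and the mutants differed from the controls in a small set that held Itga8, Itgb5, Lama2 and Nid2. Each of these 4 rose, by 1.45-fold to 1.72-fold. Genes were tested by limma on log2(FPKM + 1) where their mean over the 6 libraries was at least 1 FPKM, which 24 of the 39 passed. An adjusted p under 0.05 over all 12742 tested genes counted as changed. By that rule 4 of the 24 rose and 0 fell, where 1.71% of all tested genes rose and 1.63% fell (3.34% in either direction). At an unadjusted p under 0.05 there were 10 of 24, against 23% of all genes. The median log2 change of the 24 was 0.14, against -0.01 over all tested genes, with 16 positive and 8 negative values. All 3 mutant libraries lay above all 3 controls in 8 of the 24 genes (14.9% of all tested genes) and below them in 2 (14.6%). Without control library 1, 2 or 3 or mutant library 2, 0 of the 24 were called by limma (8, 7, 9 and 8 had an unadjusted p under 0.05). Those fits called 61, 66, 64 and 52 of all 12742 genes, so few genes of any kind passed. Without mutant library 1, 3 of the 24 and 795 of all genes were called, and without mutant library 3, 2 and 283.

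**Figure D1:**
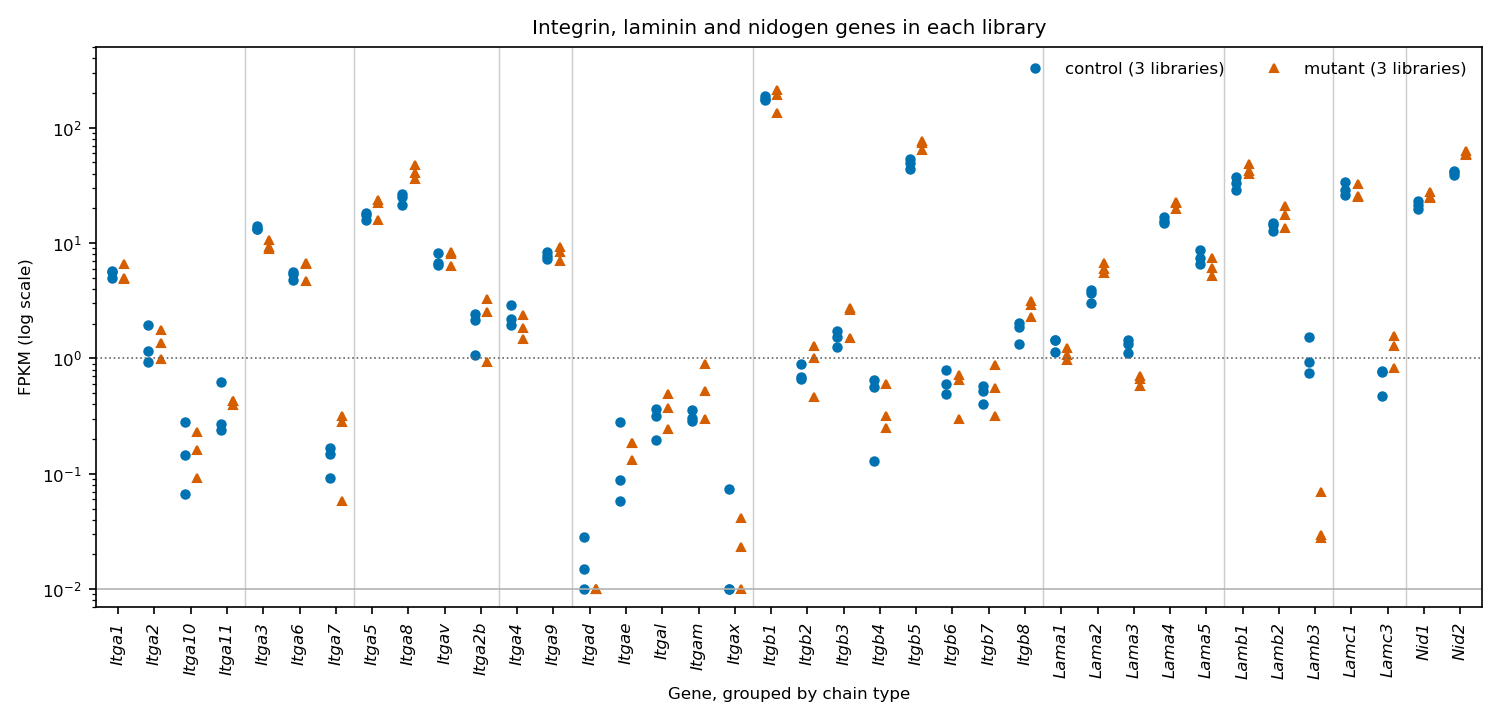
FPKM of 38 of the 39 genes (log scale) in 3 control libraries (circles) and 3 mutant libraries (triangles), grouped by chain type. The dotted line marks 1 FPKM and the grey line the floor of 0.01 FPKM. Itgb1 lies highest, at 135 to 212 FPKM, and the mutant points of Lamb3 lie far below its control points.

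Itga8 lies in a deposited locus on chromosome 2 from 12106660 to 12312315 (GRCm38) that holds 1 other gene, and its own annotation ends at 12301922. Itga8 encodes the alpha subunit that pairs with the Itgb1 product and binds the matrix protein nephronectin. It measured 25.0, 21.2 and 26.5 FPKM in control libraries 1 to 3 and 47.6, 40.2 and 35.7 FPKM in mutant libraries 1 to 3. The lowest mutant stood well above the highest control. The means were 24.2 ± 2.72 and 41.2 ± 6.01 FPKM (SD, n = 3 per group), a 1.70-fold rise with a log2 change of 0.74 (SE 0.13, limma adjusted p = 0.035). With no filter on low values the adjusted p was 0.057, and with 1 library left out it ran from 0.036 to 0.15. An antisense gene, E030013I19Rik, overlaps 372 of the 7368 exon bases of Itga8, and it measured 1.92 ± 0.285 and 2.04 ± 0.152 FPKM. The library kit did not mark strand, so reads in the overlap cannot be assigned by strand. Npnt, the nephronectin gene, named here for its partnership with Itga8 after its values were seen, had means of 39.5 and 46.6 FPKM, with all mutants above all controls and no call (adjusted p = 0.27).

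Among the other alpha subunits that recognise the RGD tripeptide of matrix proteins, Itga5, the main fibronectin receptor subunit, measured 17.4, 18.0 and 15.9 FPKM in the controls and 15.8, 23.4 and 22.3 FPKM in the mutants. Mutant library 1 was level with the lowest control and the other mutants lay above all controls, and no change was called (adjusted p = 0.40). Itgav, the partner shared by several beta subunits, ranged from 6.49 to 8.20 FPKM in the controls and from 6.33 to 8.40 FPKM in the mutants. Itga2b, the platelet subunit, spread from 0.937 to 3.28 FPKM within the mutants alone, and in the same library order megakaryocyte and platelet markers summed to 116, 156 and 153 FPKM. Their part in the spread of Itga2b was not tested.

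Laminin-binding alpha subunits did not share a direction. Itga3, whose product is a receptor of epithelial cells for laminins, measured 13.2, 13.3 and 13.9 FPKM in the controls and 9.26, 8.80 and 10.7 FPKM in the mutants. All mutants lay below the narrow control range. The log2 change was -0.45 (95% interval -0.69 to -0.22) with an adjusted p of 0.059, so Itga3 missed the threshold. Itga6, which pairs with the products of Itgb1 and Itgb4, had overlapping groups, at 4.78 to 5.57 FPKM in the controls and 4.65 to 6.70 FPKM in the mutants. Its locus in the table also holds 7 other genes. Itga7, known from muscle, stayed at 0.320 FPKM or less in every library.

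Collagen receptors of the integrin family were low to moderate. Itga1 measured 5.45 ± 0.385 FPKM in the controls and 5.43 ± 0.941 FPKM in the mutants (SD, n = 3), with a log2 change of -0.01 (95% interval -0.32 to 0.30) that turned to 0.10 with globin, mitochondrial and small RNA genes left out. Itga2 lay near 1 FPKM, at 1.34 ± 0.535 and 1.38 ± 0.394 FPKM, and Itga10 and Itga11 lay under the filter, at no more than 0.281 and 0.621 FPKM. Neither Itga4 nor Itga9, which encode related receptors for fibronectin variants, VCAM-1 and tenascin, was called (log2 changes -0.21 and 0.07, adjusted p = 0.50 and 0.78), and the change of Itga4 ran from -0.33 to -0.10 with 1 library left out.

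Of the beta subunits, Itgb1 is the common partner of most alpha subunits. Its values were 174, 176 and 187 FPKM in the controls and 212, 191 and 135 FPKM in the mutants, with mutant libraries 1 and 2 above the control range and mutant library 3 below it. The group means were 179 ± 7.15 and 179 ± 40.2 FPKM, and the 95% interval of the log2 change ran from -0.40 to 0.36. The change of -0.02 turned to 0.11 under quantile normalization and with globin, mitochondrial and small RNA genes left out. Its share of the summed integrin beta FPKM was 76.6% ± 1.88 in controls and 68.9% ± 6.86 in mutants (exact permutation test, 2-sided, p = 0.2, where 0.1 is the smallest this design allows).

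Itgb5 pairs with the Itgav product as a receptor for vitronectin. The gene lies on chromosome 16 from 33829665 to 33949338. It measured 53.5, 44.1 and 49.8 FPKM in the controls and 63.8, 73.0 and 76.6 FPKM in the mutants. No mutant value reached down to the controls. The rise was 1.45-fold, from 49.1 ± 4.75 to 71.1 ± 6.61 FPKM (log2 change 0.53, SE 0.11, adjusted p = 0.049). This p lies at the threshold. The call ended with a filter at 5 FPKM (adjusted p = 0.051), with libraries centred on their medians (0.062), without the intensity trend (0.068) and with no filter (0.067). With 1 library left out the limma adjusted p ran from 0.035 to 0.19, and Itgb5 was called only without mutant library 1. Vtn, the vitronectin gene, also chosen after its values were seen, was under the filter, at 0.0702 to 0.372 FPKM in the controls and listed at the floor of 0.01 FPKM in every mutant.

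Itgb8, whose product with that of Itgav activates latent TGF-beta, measured 2.03, 1.34 and 1.86 FPKM in the controls and 2.88, 3.14 and 2.298 FPKM in the mutants. The groups did not overlap, but the difference was not called (log2 change 0.46, SE 0.16, adjusted p = 0.14). Itgb3, the beta subunit of platelets and of endothelium, had a log2 change of 0.38 (adjusted p = 0.28) with mutant library 1 inside the control range. Itgb6 and Itgb4, both known from epithelia, lay under the filter with overlapping groups, at 0.301 to 0.791 and 0.129 to 0.649 FPKM over all libraries.

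Leukocyte integrins were low. Itgal, Itgam, Itgae, Itgax and Itgad, and their beta partners Itgb2 and Itgb7, all failed the filter, and among them only Itgb2 exceeded 1 FPKM in any library, in mutant libraries 2 and 3 (at most 1.29 FPKM). Itgad was listed at the floor of 0.01 FPKM in 4 libraries and Itgax in 3. Itgam measured 0.304, 0.360 and 0.287 FPKM in the controls and 0.299, 0.889 and 0.522 FPKM in the mutants, with mutant library 1 among the controls. Leukocyte markers summed to 166 to 206 FPKM in the controls and to 242 to 326 FPKM in the mutants, and 2 of 11 rose.

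**Figure D2:**
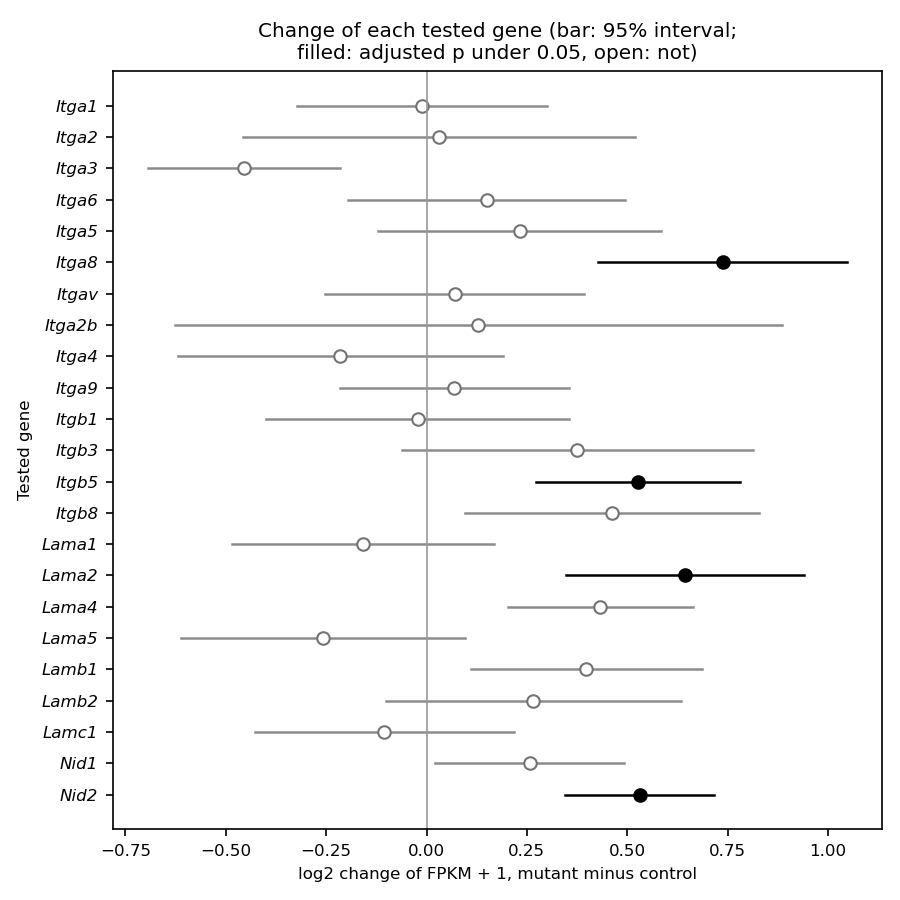
Change of 23 of the 24 tested genes on the log2(FPKM + 1) scale, mutant minus control, with its 95% interval from limma (bars). Filled points are the 4 genes with an adjusted p under 0.05, Itga8, Itgb5, Lama2 and Nid2, all to the right of 0. Itga3 lies farthest to the left and did not pass.

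Laminin alpha chains decide which receptors a laminin binds. Lama2, the chain of muscle and of mesenchymal basement membranes, lies on chromosome 10 from 26981285 to 27616942. It measured 3.88, 3.69 and 3.04 FPKM in the controls and 6.78, 5.55 and 5.92 FPKM in the mutants. The groups stood clear of each other, and the rise was 1.72-fold (log2 change 0.64, SE 0.13, adjusted p = 0.043). Another gene at this locus, 4930579H20Rik, did not exceed 0.0884 FPKM in any library. The call of Lama2 ended whichever library was left out (adjusted p = 0.054 to 0.16), while the log2 change stayed between 0.56 and 0.70.

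Lama4, the chain of endothelial and mesenchymal basement membranes, was the most abundant alpha chain. It measured 15.6, 14.8 and 16.8 FPKM in the controls and 22.7, 22.4 and 19.7 FPKM in the mutants. Every mutant lay above every control, yet the adjusted p was 0.060 (log2 change 0.43, SE 0.10). Among the scalings and filters tried, it was called only with globin, mitochondrial and small RNA genes left out (log2 change 0.56, adjusted p = 0.024), a scaling that moved the median change of all genes by 0.11. Endothelium markers summed to 145 to 167 FPKM in the controls and 171 to 201 FPKM in the mutants, with 1 of 10 that rose. Whether these cells or the mesenchyme took part in the values of Lama4 was not tested.

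Lama5 is the main laminin alpha chain under lung epithelium. It measured 7.40, 6.61 and 8.79 FPKM in the controls and 6.05, 5.20 and 7.38 FPKM in the mutants. Mutant library 3 lay inside the control range, and no call was made (log2 change -0.26, SE 0.15, adjusted p = 0.35). Lama1, the chain of the earliest embryonic basement membranes, was low in both groups, at 1.34 ± 0.180 and 1.09 ± 0.137 FPKM (adjusted p = 0.53).

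Lama3 and Lamb3 encode laminin chains of epithelial basement membranes, and both were lower in every mutant library than in any control. Lamb3, on chromosome 1 from 193301994 to 193343878, measured 0.928, 0.754 and 1.53 FPKM in the controls and 0.0293, 0.0690 and 0.0279 FPKM in the mutants. The mutant values were near the floor and rest on few fragments, so the ratio of the means, 25.5-fold, is imprecise. With a mean under 1 FPKM it was outside the main test, and with no filter on low values it was called (log2 change -0.97, SE 0.14, adjusted p = 0.035, where 1.29% of all genes were called). A filter at a mean of 0.5 FPKM, added after the data were seen, gave a limma adjusted p of 0.033 (3.24% of all genes called). Lamb3 passed that filter through its control values alone, so this fit adds no support.

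Lama3, at 1.11, 1.34 and 1.43 FPKM in the controls and 0.709, 0.572 and 0.665 FPKM in the mutants, just missed the filter. Its mutant mean was 2.00-fold lower, and it was not called without a filter (adjusted p = 0.065) or with the added filter at 0.5 FPKM (adjusted p = 0.088). Relative to the control mean, the mutant mean was 0.0393 for Lamb3, 0.501 for Lama3 and 0.712 for Itga3, beside 0.429 for the summed epithelium markers. It was 0.817 for Lama5, 0.863 for Itgb4 and 0.896 for Itgb6, whose groups overlapped. The part of the epithelial fall in these values was not tested. The same ratio was 1.70 for Itga8, 1.45 for Itgb5, 1.72 for Lama2, 1.37 for Lama4 and 1.46 for Nid2. It was 1.504 for the summed mesenchyme markers and 1.19 for the summed endothelium markers, and summed leukocyte markers were also higher in all mutants. The median log2 change of the 10 mesenchyme markers was 0.37, with 3 called higher and 1 lower. What part any of these cell types had in the values was not tested. Exact permutation tests of Lamb3 and Lama3 gave p = 0.1 each (2-sided), the smallest value possible with 3 against 3 libraries.

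**Figure D3:**
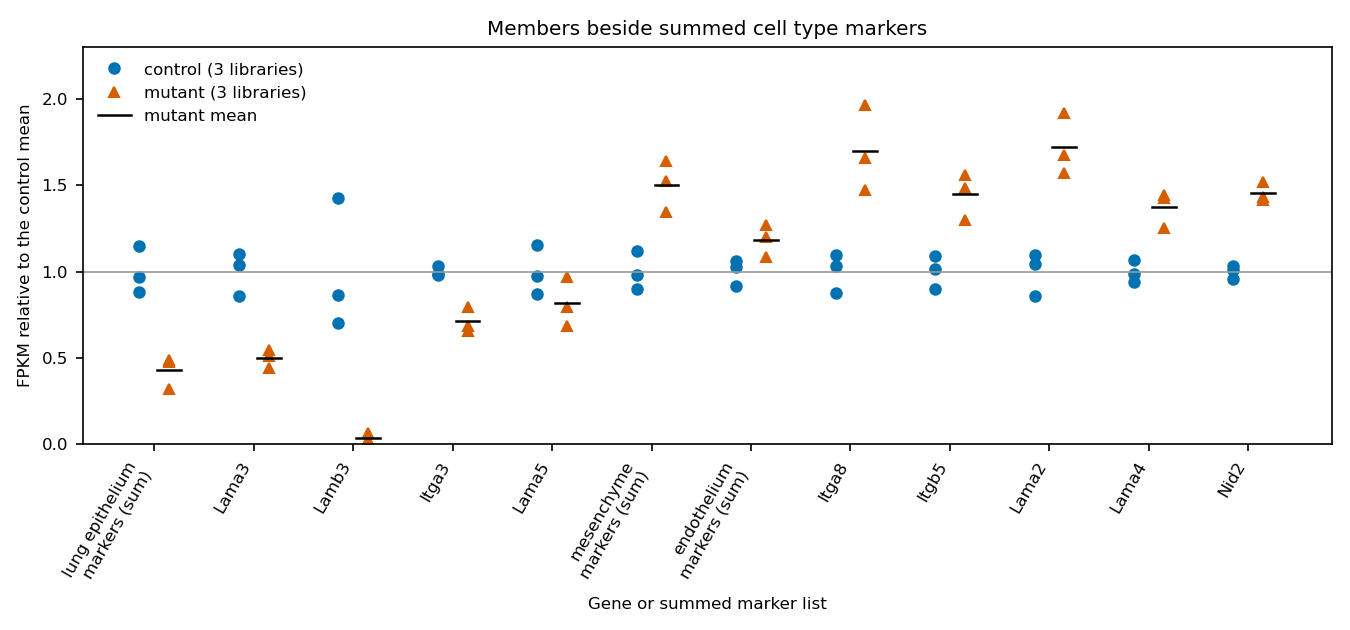
FPKM of 9 genes and of 3 summed marker lists, each divided by its control mean, in 3 control libraries (circles) and 3 mutant libraries (triangles), with the mutant mean as a black line. Lamb3, Lama3 and Itga3 lie under 1 with the epithelium markers, and Itga8, Itgb5, Lama2, Lama4 and Nid2 lie above 1 with the mesenchyme and endothelium markers. The groups of Lama5 overlap (mutant mean 0.817). The 9 genes are a selection, and Itgb4 and Itgb6 (mutant means 0.863 and 0.896, groups overlapping) are not drawn.

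Among the widely shared beta and gamma chains, none of Lamb1, Lamb2 and Lamc1 was called. Lamb1, the beta chain of most embryonic laminins, measured 32.9, 28.7 and 37.2 FPKM in the controls and 42.3, 39.9 and 48.8 FPKM in the mutants. Its groups did not overlap, but the log2 change of 0.40 (SE 0.12) had an adjusted p of 0.12. Lamb2 had overlapping groups, at 12.8 to 14.9 and 13.5 to 20.9 FPKM. Lamc1, the gamma chain of most laminins, measured 29.7 ± 4.08 FPKM in the controls and 27.6 ± 4.02 FPKM in the mutants (log2 change -0.10, adjusted p = 0.69), and the change ran from -0.22 to -0.0037 with 1 library left out and turned to 0.02 with globin, mitochondrial and small RNA genes left out. Lamc3 was under the filter, with 0.475 to 0.784 FPKM in the controls and 0.834 to 1.57 FPKM in the mutants, and it was not called without a filter (adjusted p = 0.22).

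As shares of the summed alpha-chain FPKM, the make-up of the laminin alpha chains differed in all mutant libraries from all controls. Lama5 held 25.4%, 23.7% and 27.9% in controls and 16.2%, 14.99% and 21.1% in mutants. Lama4 held 53.3% ± 0.186 in controls and 60.6% ± 4.06 in mutants, (SD, n = 3), and Lama2 held 9.64% to 13.3% and 15.99% to 18.2%. Lama3 held 4.39% ± 0.512 and 1.82% ± 0.146. The groups of shares did not overlap for any of the 5 alpha chains, and the exact permutation test gave p = 0.1 for each, the smallest this design allows. As FPKM, the groups of Lama1 and Lama5 did overlap. Among all tested genes, 29.5% had FPKM groups that did not overlap. These shares have 1 sum in common and are not independent. The share of Lamb3 among the beta chains was 2.19% ± 0.603 in controls and 0.0709% ± 0.0431 in mutants. The summed alpha-chain level itself was 29.5 ± 1.85 FPKM in the controls and 35.6 ± 1.43 FPKM in the mutants.

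**Figure D4:**
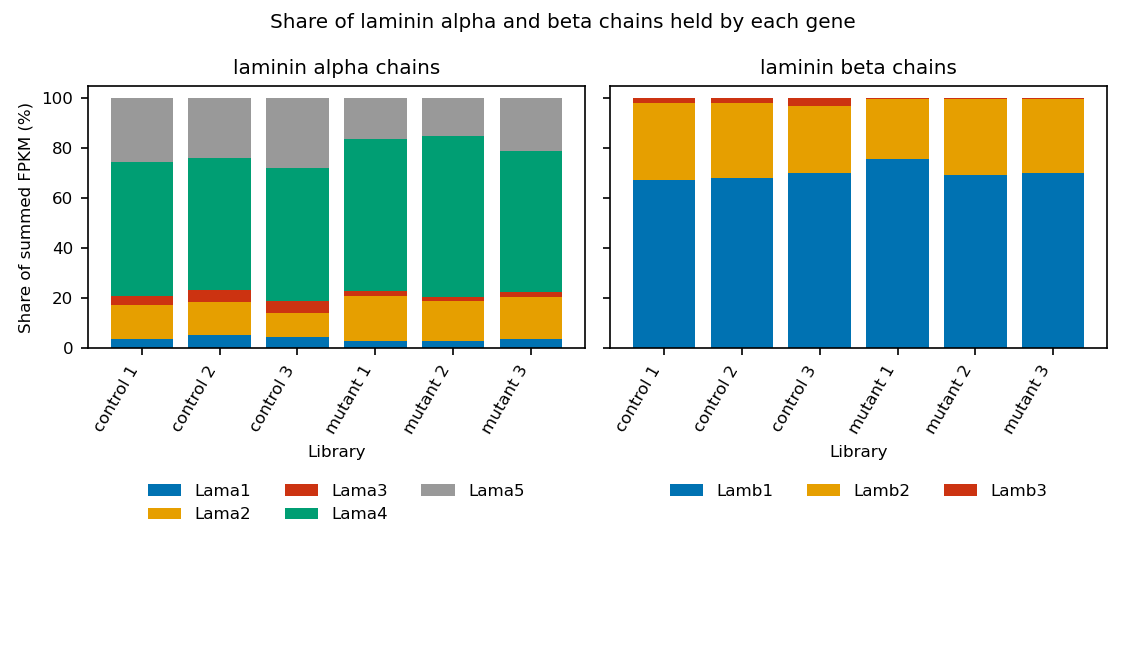
Share of the summed FPKM of laminin alpha and of laminin beta chains held by each gene (stacked bars, %), in each of the 6 libraries. Lama5 holds 23.7% to 27.9% of the alpha chains in controls and 14.99% to 21.1% in mutants, and Lamb3 is barely visible in the mutant bars.

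Both nidogen genes were abundant. Nid2 lies in a deposited locus on chromosome 14 from 19751257 to 19823823, and its own annotation ends at 19811787. It measured 42.2, 39.2 and 41.4 FPKM in the controls and 58.7, 57.9 and 62.3 FPKM in the mutants. The spread within each group was small against the gap between them, and Nid2 had the lowest adjusted p of the 24 tested genes (log2 change 0.53, SE 0.08, adjusted p = 0.021). The rise was 1.46-fold, from 40.9 ± 1.56 to 59.6 ± 2.36 FPKM, and with 1 library left out the adjusted p ran from 0.030 to 0.12. The gene Rtraf, listed as 2700060E02Rik at the same locus, overlaps 437 of the 5174 exon bases of Nid2 on the other strand. Rtraf measured 206 ± 8.61 FPKM in the controls and 167 ± 13.0 FPKM in the mutants (adjusted p = 0.10). Reads in this overlap cannot be assigned by strand either, and their part in the values of Nid2 was not tested. Nid1 measured 19.8, 21.2 and 23.4 FPKM in the controls and 25.2, 24.4 and 27.9 FPKM in the mutants. Its groups were separate by a narrow gap, and the log2 change of 0.26 (SE 0.10) was not called (adjusted p = 0.18). Nid2 held 65.6% ± 2.19 of the nidogen FPKM in the controls and 69.8% ± 0.671 in mutants (exact permutation test, p = 0.1).

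Promoter sequence was available for 24 of the 39 genes in RefSeq (GRCm38.p6). The 250 bases before the start are given 5′ to 3′ on the strand of the gene. They are shown for Itga8, Itgb5 and Lama2, which rose, and for Lamb3, which had the lowest mutant-to-control ratio. Nid2, which also rose, had no promoter sequence available. For Lamb3 the window before the start of its deposited locus was picked, while GENCODE M21 starts the gene farther upstream, at 193207699. GENCODE M21 also starts Lama2, on the minus strand, upstream of the window shown, at 27619758. Capitals mark matches to the GC box GGGCGG and to the E-box CANNTG on either strand. The windows are chr2:12301945-12302194 (minus strand) for Itga8, chr16:33829415-33829664 (plus) for Itgb5, chr10:27616943-27617192 (minus) for Lama2 and chr1:193301744-193301993 (plus) for Lamb3.
Itga8: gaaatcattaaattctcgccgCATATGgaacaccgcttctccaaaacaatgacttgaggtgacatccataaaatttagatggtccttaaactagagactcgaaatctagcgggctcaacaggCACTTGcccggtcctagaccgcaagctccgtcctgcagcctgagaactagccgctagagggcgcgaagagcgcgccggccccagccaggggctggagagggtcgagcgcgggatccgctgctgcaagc
Itgb5: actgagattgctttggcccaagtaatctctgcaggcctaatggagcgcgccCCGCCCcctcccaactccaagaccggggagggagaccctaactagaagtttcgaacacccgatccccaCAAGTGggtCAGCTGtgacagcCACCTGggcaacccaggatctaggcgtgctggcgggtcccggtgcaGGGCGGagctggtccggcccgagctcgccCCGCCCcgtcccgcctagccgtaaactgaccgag
Lama2: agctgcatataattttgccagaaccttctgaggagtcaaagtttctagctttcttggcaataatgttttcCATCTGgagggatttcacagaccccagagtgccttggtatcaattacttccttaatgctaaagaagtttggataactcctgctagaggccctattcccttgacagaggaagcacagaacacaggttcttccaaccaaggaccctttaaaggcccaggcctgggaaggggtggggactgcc
Lamb3: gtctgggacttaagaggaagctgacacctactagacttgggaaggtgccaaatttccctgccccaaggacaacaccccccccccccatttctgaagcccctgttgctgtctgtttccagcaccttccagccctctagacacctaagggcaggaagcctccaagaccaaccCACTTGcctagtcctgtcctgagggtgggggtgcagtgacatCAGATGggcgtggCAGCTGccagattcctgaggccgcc
Itgb5 has 3 GC box matches and the other windows have 0, where 32.7% of 32851 RefSeq windows of this length hold at least 1. E-box matches number 2 in Itga8, 3 in Itgb5, 1 in Lama2 and 3 in Lamb3, and 66.2% of all windows hold at least 1. The AP-1 motif TGANTCA and the TATA box TATAAA, found in 6.75% and 12.4% of windows, have no match in these 4. The GC content of the windows is 56.4% in Itga8, 65.2% in Itgb5, 47.2% in Lama2 and 58.8% in Lamb3, against a median of 52.4%. A letter match is a description of the window and not a bound site.

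Partner genes of integrins and laminins were read against all tested genes, of which 3.34% were called and 23% had an unadjusted p under 0.05. Among 16 tested basement membrane genes other than laminins and nidogens, 2 rose and 0 fell (median log2 change 0.22). Egfl6, an adhesion protein of the matrix and a ligand of the integrin that contains the Itga8 subunit, measured 12.4, 9.94 and 11.5 FPKM in the controls and 22.1, 21.6 and 18.3 FPKM in the mutants. The groups were far apart, and the rise was 1.83-fold (log2 change 0.82, SE 0.12, adjusted p = 0.020). Sparc, a collagen-binding matrix protein gene, rose from 304 ± 14.6 to 420.1 ± 31.1 FPKM (1.38-fold, adjusted p = 0.037). Leaving out control library 1, 2 or 3 or mutant library 2 ended both calls, in fits that called 61, 66, 64 and 52 of all genes.

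Of 16 tested integrin ligands, 0 were called by limma and 7 had an unadjusted p under 0.05, beside 3.34% and 23% of all tested genes. The 2 with the smallest p were Cdh1, the E-cadherin gene, at 3.69 ± 0.833 and 1.55 ± 0.363 FPKM (adjusted p = 0.051), and Vcam1, at 17.3 ± 1.99 and 26.0 ± 3.81 FPKM (adjusted p = 0.066). Cdh1 is also among the 14 lung epithelium markers, so these 2 lists share it. Non-integrin laminin receptors had 0 called of 11 and 2 at an unadjusted p under 0.05, a share near that of all genes. Those 2 were Sdc1, an epithelial syndecan gene, at 51.4 ± 4.23 and 40.0 ± 4.07 FPKM (adjusted p = 0.11), and Rpsa, at 1280 ± 52.2 and 1083 ± 92.9 FPKM (adjusted p = 0.17).

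Of 33 adhesion adaptor genes, 1 fell and 0 rose (median log2 change 0.07), a share near the 3.34% called of all genes. Nedd9, a docking protein that links integrins and focal adhesion kinase to migration, measured 36.7, 33.6 and 43.4 FPKM in the controls and 20.6, 19.6 and 20.5 FPKM in the mutants. The mutants were tightly grouped, and the fall was 1.88-fold (log2 change -0.87, SE 0.11, adjusted p = 0.012). No adaptor was called without control library 1 or without mutant library 2, where 61 and 52 of all genes were called. Ptk2b, a kinase related to focal adhesion kinase, measured 0.860 ± 0.326 and 1.77 ± 0.228 FPKM (log2 change 0.58, adjusted p = 0.10). With globin, mitochondrial and small RNA genes left out, 5 of 16 ligands, 4 of 16 basement membrane genes and 3 of 33 adaptors were called. That scaling called 1014 of all 12621 genes tested under it, 841 of them higher.

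**Figure D5:**
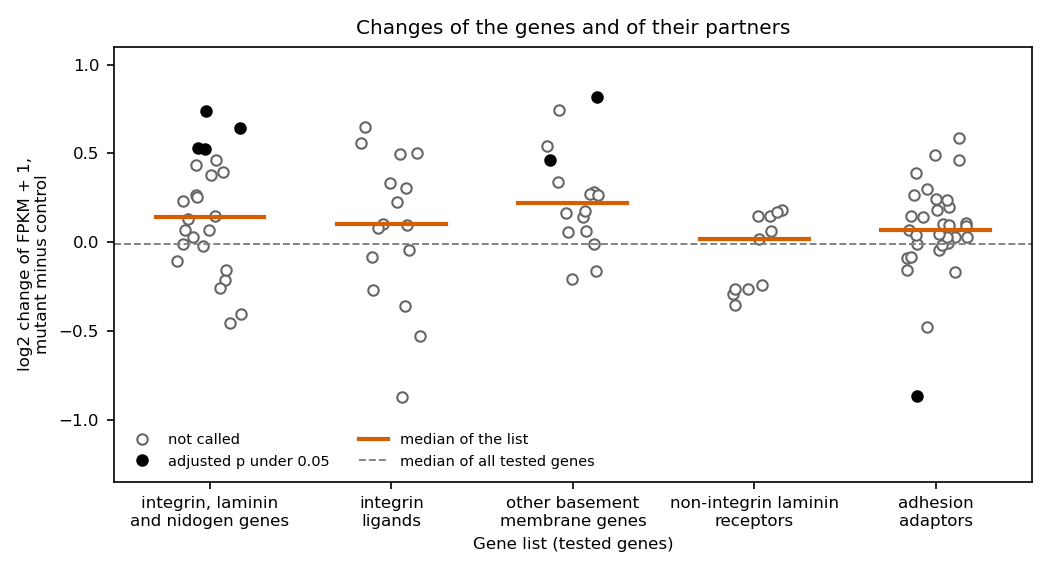
log2 change of FPKM + 1, mutant minus control, of each tested gene (points) in the integrin, laminin and nidogen genes and in 4 lists of partner genes, with list medians (orange) and the median of all tested genes (dashed, -0.01). Filled points passed an adjusted p of 0.05: 4 in the first column, 2 basement membrane genes above 0 and the adaptor Nedd9 below 0.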

How the data were processed

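Lungs of E12.5 mouse embryos gave 6 RNA-seq libraries, 3 per genotype. Per the labels' protocols, cDNA came from a SMARTer Ultra Low Input kit (version 3) and was read as 75 bp paired ends. The deposited values are FPKM per gene. TopHat, Bowtie2, Cufflinks and the build mm10 (GRCm38) are named in the submitters' processing notes. Their versions and the annotation were not given in sources used here. The table holds 24341 genes, 0.01 FPKM stands where nothing was measured, and 3 genes with a failure mark in mutant library 1 were left out. A deposited locus can hold several genes, and starts are counted from 1.

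The 12742 genes whose 6-library mean reached 1 FPKM were tested as log2(FPKM + 1) by limma 3.58.1 (R 4.3.3) with a trend on mean level, 2-sided, with Benjamini-Hochberg adjustment. This scale understates changes of low genes, so folds are ratios of group means. The fit was tested on simulated data. Single values were compared by exact permutation tests. Relative depth is the most frequent ratio of low values to those of control library 1. GENCODE M21 gave exon overlaps. Of the 39 members 38 are named and 1 is not reported here, and of each partner list the called genes, filled up to 2 by the smallest p. The members and lists were chosen with earlier results of these data known. Alternatives were other pseudocounts, filters, scalings, variance settings, thresholds, a replicate block and leaving out each library.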

Additional observations from a re-analysis of the deposited data

How the results depend on the processing

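Of the 24 tested integrin, laminin and nidogen genes 4 were called. With no filter 2 of 39 were called, Nid2 and Lamb3, so that of the 4 only Nid2 remained. At a mean of at least 5 FPKM, which Lama2 did not reach, 2 of 17 were called, Itga8 and Nid2. Of the 24, limma called 0 at an adjusted p under 0.01 and 0 to 3 with 1 library left out. For all genes, 426 became 242 with no filter, 1014 with globin, mitochondrial and small RNA genes left out, 1138 and 65 at adjusted p under 0.1 and 0.01, and 52 to 795 with 1 library left out. That rescaling gave 17.1% lower calls against 48.8%, while median centring gave 57.7%. Integrin ligands (0 called) gave 1 with a pseudocount of 0.01, quantile normalization, median centring, robust variances or the filter at 0.5 FPKM, 5 rescaled, 4 at an adjusted p under 0.1 and 0 to 3 by library. Other basement membrane genes (2) gave 1 with no filter or no trend, 4 rescaled, 4 and 0 at adjusted p under 0.1 and 0.01, and 0 to 2 by library. Adhesion adaptors (1) gave 3 rescaled, 0 at an adjusted p under 0.01 and 0 to 2 by library, and laminin receptors 0 throughout the libraries left out. The median log2 change was 0.14 over the 24 genes and 0.069 over the 39 with no filter, and for the 24 it was 0.236 rescaled and 0.0591 to 0.219 by library.

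The sign turned rescaled for Itga1 (0.10), Itgb1 (0.11), Lamc1 (0.021) and Sin3a (0.0496), and under quantile normalization for Itga2 (-0.012) and Itgb1 (0.11). With 1 library left out, log2 changes ran from -0.13 to 0.052 for Itga1, -0.10 to 0.21 for Itga2, -0.11 to 0.47 for Itga2b, -0.33 to -0.10 for Itga4, -0.0063 to 0.17 for Itga9, -0.00086 to 0.18 for Itgav, -0.16 to 0.17 for Itgb1 and -0.22 to -0.0037 for Lamc1. The log2 changes of the 4 called genes stayed positive under each alternative that tested them, at 0.63 to 0.86 for Itga8, 0.45 to 0.65 for Itgb5, 0.56 to 0.78 for Lama2 and 0.50 to 0.66 for Nid2. The cause was not tested for any of these. Whole libraries of the same number correlated at 0.966, 0.969 and 0.962 between the groups. With the level of each gene taken out, these correlations were -0.089, -0.078 and -0.026. Pairs of other numbers then ran from -0.034 to 0.087, so no pairing by replicate number was seen. With the replicate block limma called 0 of the 24 genes (10 at an unadjusted p under 0.05), 52 of all genes, 0 basement membrane genes and 0 adaptors. Genes under 1 FPKM rest on few fragments, and their absolute depth is unknown.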
